A study of Mus musculus with 21 samples.

Results

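Livers without tumours from Trp53 knockout (KO) and Trp53 wild-type (WT) mice were compared, with 4 arrays of each group, chosen by their labels as untreated liver. These are 8 of the 21 arrays of the study. The mice were of strain C57BL/6J and none of the 8 livers had been exposed to a carcinogen. The other arrays held 6 tumours of 5 KO mice, labelled as hepatocellular and cholangiocellular carcinoma and also not treated, and 7 hepatocellular carcinomas of 5 mice with intact Trp53. The latter had received N-nitrosodiethylamine (DEN), a liver carcinogen, at 10 µg per g body weight on day 15 of life. The sources used here do not give the age and sex of the liver donors, the exons deleted or the cells in which Trp53 was deleted. The numbers in the titles of the livers were read as separate mice. All KO liver arrays lay on 1 slide and all WT liver arrays on another, scanned on a different day. Genotype therefore cannot be told apart from slide and scan day in any liver result below.

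p53, the product of Trp53, is a transcription factor that is held at low levels in unstressed cells by the ubiquitin ligase Mdm2 and activates genes of cell cycle arrest, DNA repair and cell death after damage. The liver is also one of the most sex-biased organs of the mouse. Pulses of growth hormone in males and a more even level in females set the activity of STAT5b in hepatocytes, with the repressors Bcl6 (higher in males) and Cux2 (higher in females) acting below it. Sulfotransferases, cytochrome P450 enzymes and solute carriers are prominent among the genes that differ between the sexes.

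Signals are log2 processed intensity minus that array's 75th percentile, so that 0 is the level of a gene at that percentile. Changes are KO minus WT on the log2 scale with their standard error. Adjusted p-values are from limma over the 8 livers with Benjamini-Hochberg adjustment over 17768 genes, and a gene was called at an adjusted p below 0.05. The 75th percentile of intensity was 499.6 to 685 units on the KO and 476 to 729 on the WT arrays. Between 51.0 and 56.5% of probes were well above background on the KO arrays and between 57.8 and 63.3% on the WT arrays. Arrays correlated at 0.987 to 0.993 among KO livers, 0.967 to 0.988 among WT livers and 0.945 to 0.972 between them. The first principal component (61.6% of the variance) separated the groups, with KO livers at 54.19 to 60.91. On it WT livers 1 and 2 (-39.59 and -31.45) lay nearer to the KO livers than WT livers 3 and 4 (-77.92 and -77.47). The second component (14.7%) also set WT livers 1 and 2 apart from WT livers 3 and 4. In these bulk samples fewer cells of a type and less RNA per cell cannot be told apart, and 4 arrays a group limit the precision of each value.

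In all, 1812 genes (10.2%) were higher and 2744 (15.4%) lower in KO livers, or 25.6% either way. Of these, 457 (2.57%) were at least 2-fold higher and 1597 (8.99%) at least 2-fold lower. The livers of the groups did not overlap for 5622 genes (31.6%). Calls depended on signal level. Among the 3809 genes with a mean level below -3, 34.8% were called lower and 4.31% higher, with a median change of -0.59. Among the 3375 genes with a level above 3 the shares were 3.23% and 12.6%, and the median was 0.19. The excess of lower calls therefore lay among dim genes, where the KO arrays also had fewer probes above background, and its cause was not tested. The calls also rest on treating the 8 arrays as independent. In the 8 livers slide and group are the same, so a random block for slide was fitted to all 21 arrays in 4 groups. Tumours of 1 mouse were not averaged there, and the correlation within slides was set at 0.39. With slide as a random block 11 genes passed as higher and 13 as lower. The spread between tumours also enters this fit, and without a block the fit of 4 groups over 18 mice gave 514 and 1404. Of the 43 gene lists 39 had no member called with that block, and the others were the female-biased list with 4, and the male-biased, iron handling and biliary lists with 1 each.

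**Figure D1:**
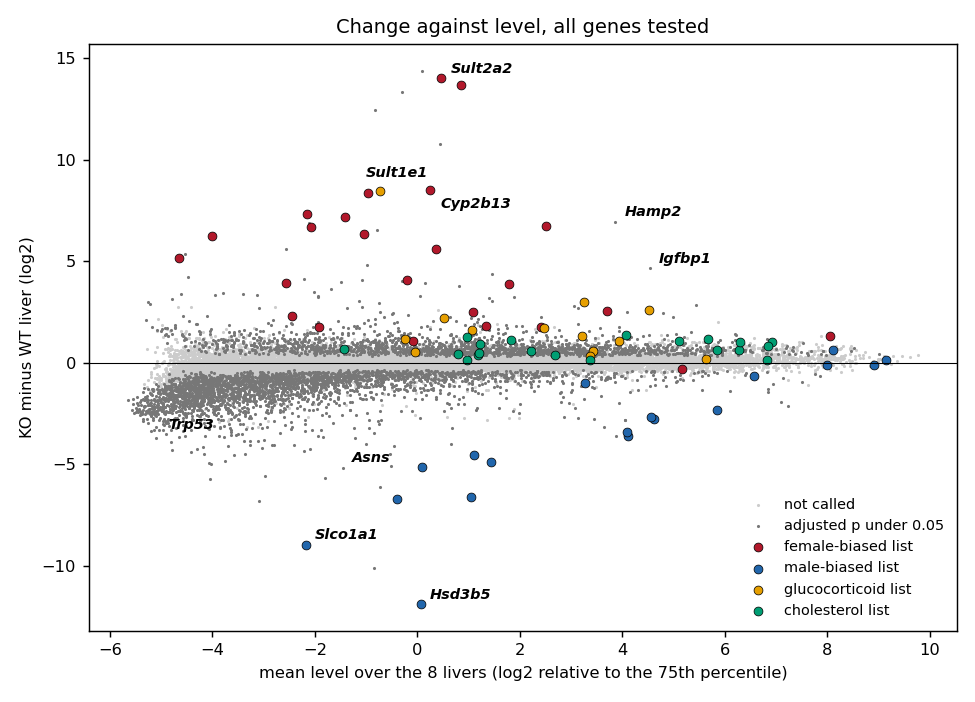
Change of each tested gene between the livers (vertical axis, log2 KO minus WT) against its mean level over the 8 livers (horizontal axis, log2 signal relative to the 75th percentile), with called genes in dark grey and 4 gene lists in colour. Of the genes below a level of -3, 34.8% were called lower, against 3.23% of those above 3.

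Trp53 itself read lower in KO livers. Its probe (mm9, chr11:69404204-69404263) gave -6.47, -4.91, -5.91 and -5.01 in the KO livers and -3.85, -3.72, -3.39 and -3.31 in the WT livers. Every KO liver lay below every WT liver, and the probe was well above background on 1 of 4 KO arrays and 4 of 4 WT arrays. The change was -2.002 ± 0.34 (adjusted p 0.0044, and 0.29 with slide as a random block). With 1 of 4 KO arrays above background, its size is not a measured one. Trp53 lies at a mean level of -4.57, among the dim genes, and 9.27% of the 3809 genes below -3 fell at least as far. Of 160 genes tested within 5 Mb of Trp53 on chromosome 11, 14 were higher and 19 lower (20.6% either way), against 24.2% of the 1377 genes of the whole chromosome. Whether the probe lies in a deleted exon is not known here.

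Of 35 listed genes that p53 activates 30 were tested, and 6 were called higher and 2 lower (20.0% and 6.67%, against 10.2% and 15.4% of all genes), with a median change of 0.04 against -0.0007 over all genes. The higher ones were Trp53inp1, an autophagy and stress protein (1.25 ± 0.33, adjusted p 0.024, with another probe at -0.44), Ddit4, an inhibitor of mTORC1 (1.73 ± 0.45), Rrm2b, a subunit of ribonucleotide reductase (1.15 ± 0.24, adjusted p 0.0099), Sco2, a copper chaperone of cytochrome oxidase (0.79 ± 0.20), Sesn2, a sestrin (0.53 ± 0.15), and Dcxr, a xylulose reductase (0.49 ± 0.12). Aen, an apoptosis-enhancing nuclease, was lower, with KO livers at 1.80, 1.69, 1.71 and 1.88 and WT livers at 2.52, 2.52, 2.61 and 2.27 (-0.71 ± 0.12, adjusted p 0.0041), and so was the kinase Plk2 (-0.90 ± 0.27). Both genes were lower without overlap of the groups. Without KO liver 2, or without WT livers 3 and 4, 1 target was higher, without WT liver 3 there were 2, and without KO liver 4 there were 3. With slide as a random block no target passed in either direction.

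The best known p53 targets did not pass or were not tested. Mdm2 read 3.02, 3.08, 2.94 and 3.36 in KO and 3.12, 3.17, 2.52 and 2.58 in WT livers (0.25 ± 0.19, adjusted p 0.35), with overlap. Ccng1, cyclin G1, gave -0.29 ± 0.14 (adjusted p 0.15). Cdkn1a, the p21 inhibitor of cyclin-dependent kinases, was well above background on 0 of 4 KO and 2 of 4 WT arrays and was not tested. Its signals were -5.57, -5.62, -5.68 and -5.61 in KO and -5.32, -4.50, -4.92 and -4.54 in WT livers, so that the groups did not overlap.

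Of 19 genes of the p53 family and its regulators, 5 were higher and 2 lower (26.3% and 10.5%, against 10.2% and 15.4% of all genes). The family member Trp63 rose by 0.94 ± 0.20 (adjusted p 0.011), the acetyltransferase Crebbp by 0.85 ± 0.17, the deacetylase Sirt1 by 0.60 ± 0.15, the acetyltransferase Ep300 by 0.51 ± 0.15 and the phosphatase Ppm1d by 0.47 ± 0.14. Another probe of Crebbp gave -0.014. Chek1, a checkpoint kinase, fell beside Trp53, from -3.02, -3.46, -2.27 and -2.06 in WT livers to -4.84, -4.89, -4.75 and -4.69 in KO livers (-2.09 ± 0.29, adjusted p 0.0018). Chek1 was above background on 1 of 4 KO arrays, so its size is not a measured one. Leaving out 1 liver left 2 to 6 members of this list higher, with 2 left without KO liver 2, KO liver 4 or WT livers 3 and 4, and 3 without KO liver 1, KO liver 3, WT liver 3 or WT liver 4. Without WT livers 1 and 2, 4 were lower.

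Of 8 inhibitors of the cell cycle that were tested, 2 were higher and 0 lower, against 10.2% and 15.4% of all genes. Both counts were the same with each liver left out, but with slide as a random block none was higher. Cdkn2c, which encodes p18 of the INK4 family, read 0.69, 0.66, 1.05 and 0.43 in KO livers and -2.08, -2.20, -2.59 and -2.02 in WT livers. The groups lay far apart, and the change was 2.93 ± 0.18 (adjusted p 3.95e-05). Cdkn1c, which encodes p57, rose by 1.57 ± 0.13 (adjusted p 0.00015), with KO livers at -0.04, -0.01, -0.07 and -0.15 and WT livers at -1.61, -1.40, -1.84 and -1.71. Cdkn1b gave -0.01 ± 0.21, Cdkn2d 0.18 ± 0.20, Cdkn2b -0.16 ± 0.24 and the retinoblastoma gene Rb1 0.12 ± 0.15, and none of these passed.

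Genes of the dividing cell moved little in number. Of 27 tested cell cycle genes 2 were higher and 2 lower (7.41% each way, against 10.2% and 15.4% of all genes). Ccnd1, cyclin D1, read 4.41, 3.40, 3.39 and 3.005 in KO livers and 0.94, 1.01, 1.91 and 1.30 in WT livers (2.26 ± 0.33, adjusted p 0.0021), without overlap, and the replication clamp Pcna rose by 0.38 ± 0.12. Ccnb1, the mitotic cyclin, fell by 1.75 (adjusted p 0.0076) and the thymidylate synthase Tyms by 1.05. Mki67, the proliferation marker, gave -2.23, -2.11, -2.42 and -2.50 in KO and -3.04, -2.52, -2.12 and 0.51 in WT livers (-0.52 ± 0.67, adjusted p 0.58). WT liver 4 was the high sample. Without WT livers 1 and 2, 7 cell cycle genes were lower. Of 16 DNA repair genes 1 was higher and 1 lower (6.25% each way), the latter Parp1 (-0.54 ± 0.15).

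Female-biased liver genes made the widest differences between the genotypes. Of 24 that were tested, 23 were higher in KO livers and 0 lower, against 10.2% higher among all genes, with a median change of 4.63. The groups did not overlap for 23 of the 24, against 31.6% of all genes. The list had been seen to differ in these livers before, so its count is a description. Changes ran from 1.07 (Tox) up to 13.69 (Sult2a1) among those with a WT array above background. Where no WT array was above background, the fold is given as a lower bound. It sets the mean of the bright group against, on each array of the dim group, the higher of the dim probe's own signal and the lowest signal among probes well above background. With such genes at their bound the median was 4.02.

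The sulfotransferases of family 2A, which sulfate steroids and bile acids, rose furthest. Sult2a2 (chr7:14364926-14364985) read 7.37, 7.53, 7.53 and 7.44 in KO livers and -7.01, -6.43, -6.81 and -5.87 in WT livers. All KO livers were among the brighter signals of their arrays, and no WT array was above background, which gives at least 6388-fold higher in KO (adjusted p 5.02e-09). Sult2a1 read 7.63, 7.87, 7.72 and 7.58 in KO and -7.19, -4.56, -6.87 and -5.35 in WT livers, of which 1 of 4 was above background, so its fitted difference of 13.69 ± 0.53 is not a measured size. The same limit applies to Hao2, Cyp3a44, Cyp2a22 and Sult1e1, above background on 1 of 4 WT arrays, and to Cyp2b9 and Cyp2b13, on 2 of 4. Of all 7 family members tested, on the list or not, 6 were higher and 1 lower, against 10.2% and 15.4% of all genes. Sult2a6 read 7.21, 7.32, 7.28 and 7.28 against -7.00, -7.26, -6.82 and -7.35, at least 5572-fold higher, and Sult2a3 was at least 1522-fold higher. Sult2a7 rose by 3.21 ± 0.62 (adjusted p 0.0073). Sult2a8, singled out after its values were seen, went the other way, from a mean of 6.22 in WT to 4.90 in KO livers (-1.32 ± 0.23, adjusted p 0.0043). The probes of Sult2a1, Sult2a2 and Sult2a4 share most of their bases (54 of 59 aligned bases between Sult2a1 and Sult2a2, 51 of 54 between Sult2a1 and Sult2a4), so signal may be shared among these genes. The probes of Sult2a3 and Sult2a6 have at most 26 bases in common with any of the other 6 tested members. Sult3a1, of another sulfotransferase family, read -1.86, -1.48, -0.55 and 0.35 in KO livers and was not above background in WT livers, at least 19.5-fold higher. A1bg, a secreted glycoprotein, was at least 8.63-fold higher.

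Cytochrome P450 enzymes of the 2B, 3A and 2A groups were next. Cyp2b13 read 4.38, 4.49, 4.38 and 4.79 in KO livers and -4.66, -4.85, -3.28 and -3.26 in WT livers (8.53 ± 0.38, adjusted p 7.53e-06). Cyp2b10, which is also induced by drugs through the receptor CAR, read 5.71, 5.87, 5.90 and 6.08 in KO and -1.45, -2.51, -0.38 and 0.93 in WT livers (6.74 ± 0.62, adjusted p 0.00028). The WT livers spread over more than the KO livers in each. Cyp3a44 rose by 7.16 ± 0.62, Cyp2b9 by 6.68 ± 0.80 and Cyp2a22, which is not on the list, by 6.89 ± 0.49, and Cyp2a4, bright in both groups, by 1.31 ± 0.13. Cyp17a1 (2.48 ± 0.20) and Cyp39a1 (2.56 ± 0.41), which hydroxylate steroids and oxysterols, rose less. Cyp3a16 was the exception of the list, with 4.65, 5.22, 5.72 and 4.50 in KO and 5.64, 4.89, 5.08 and 5.68 in WT livers (-0.30 ± 0.30, adjusted p 0.48).

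The promoters of Cyp2b9 and Cyp2b13, genes that rose together, are nearly the same in the RefSeq sequence (build GRCm38.p6, 250 bases before the start, both on the plus strand, chr7:26173159-26173408 and chr7:26061245-26061494). They are 99.2% identical and are shown because the promoters hardly differ, whereas the probes of these genes have 24 identical bases of 60. Capitals mark the differing bases, T48C and C104T counted from the 5′ end of the window with the base of Cyp2b9 first.
Cyp2b9: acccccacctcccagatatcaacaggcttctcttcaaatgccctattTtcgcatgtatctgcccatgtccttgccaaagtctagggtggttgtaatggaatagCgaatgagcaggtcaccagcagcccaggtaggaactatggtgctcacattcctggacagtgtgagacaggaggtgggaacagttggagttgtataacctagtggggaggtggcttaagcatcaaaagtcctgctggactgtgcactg
Cyp2b13: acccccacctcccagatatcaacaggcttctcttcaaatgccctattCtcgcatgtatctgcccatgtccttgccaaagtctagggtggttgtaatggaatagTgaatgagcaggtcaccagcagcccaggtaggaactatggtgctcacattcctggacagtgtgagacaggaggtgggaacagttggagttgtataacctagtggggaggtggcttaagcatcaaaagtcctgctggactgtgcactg

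Other members have various roles. The flavin monooxygenase Fmo2 read -1.17, -1.02, -1.02 and -0.92 in KO and -3.19, -2.61, -2.74 and -2.61 in WT livers (1.75 ± 0.16). Hao2, a peroxisomal hydroxyacid oxidase, rose by 7.33 ± 0.66, the organic anion carriers Slc22a26 and Slc22a27 by 6.34 ± 0.45 and 5.61 ± 0.35, the stem cell membrane protein Prom1 by 4.09 ± 0.29 and the acyl-CoA thioesterases Acot3 and Acot4 by 3.89 ± 0.74 and 1.79 ± 0.20. Cux2, the female-biased repressor, read -0.82, -0.05, 0.09 and -1.63 in KO and -5.43, -2.07, -5.73 and -4.94 in WT livers (3.94 ± 0.78, adjusted p 0.0081). WT liver 2 was the high WT sample and still lay below all KO livers. The coregulator Trim24 rose by 1.74 ± 0.27. With any 1 liver left out 23 members were higher, without WT livers 3 and 4 there were 22, and with slide as a random block 4 were higher.

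The element TTCNNNGAA, to which STAT5 binds, was searched on both strands of the 250 bases before each start. It occurred in 3 of 19 matched female-biased genes (12.5% of 24 windows), in 1 of 12 matched male-biased genes (7.14% of 14 windows) and in 7.02% of all 32851 promoters. The windows of these 4 genes are shown as context for the values, with the element in capitals. The female-biased ones are Sult3a1 (GRCm38.p6, chr10:33857472-33857721, plus strand), A1bg (chr15:60921271-60921520, minus strand) and Slc22a26 (chr19:7802668-7802917, minus strand), and the male-biased one is C8a (chr4:104876399-104876648, minus strand), which fell.
Sult3a1: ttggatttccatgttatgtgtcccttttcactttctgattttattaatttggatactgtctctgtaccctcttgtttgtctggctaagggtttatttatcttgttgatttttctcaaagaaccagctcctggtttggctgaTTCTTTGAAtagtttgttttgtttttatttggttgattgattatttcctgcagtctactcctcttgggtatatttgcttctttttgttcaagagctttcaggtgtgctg
A1bg: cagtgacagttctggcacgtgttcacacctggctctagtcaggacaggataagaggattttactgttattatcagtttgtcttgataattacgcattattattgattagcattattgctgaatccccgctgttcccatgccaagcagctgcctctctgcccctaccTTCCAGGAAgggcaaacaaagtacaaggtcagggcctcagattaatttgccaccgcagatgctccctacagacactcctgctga
Slc22a26: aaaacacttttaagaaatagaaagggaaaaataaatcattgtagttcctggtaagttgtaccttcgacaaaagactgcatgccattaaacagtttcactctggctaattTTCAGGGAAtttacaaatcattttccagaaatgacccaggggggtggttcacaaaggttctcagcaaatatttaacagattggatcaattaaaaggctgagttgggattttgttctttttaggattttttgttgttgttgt
C8a: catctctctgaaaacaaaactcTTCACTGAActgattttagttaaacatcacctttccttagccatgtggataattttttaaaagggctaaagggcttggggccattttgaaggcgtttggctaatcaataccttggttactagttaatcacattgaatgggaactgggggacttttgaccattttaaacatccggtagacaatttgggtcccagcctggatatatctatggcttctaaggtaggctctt

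Male-biased liver genes were lower. Of 18 tested, 14 were lower in KO livers and 0 higher, against 15.4% lower among all genes, with a median change of -3.09. The groups did not overlap for 14 of the 18, against 31.6% of all genes. Hsd3b5, a steroid reductase of male liver (chr3:98422576-98422635), read -5.48, -6.41, -6.33 and -5.28 in KO livers and 6.64, 6.26, 5.97 and 5.13 in WT livers. No KO array was above background, which gives at least 1666-fold lower in KO (adjusted p 5.98e-07). Slco1a1, an organic anion transporter of the sinusoidal membrane, read -6.64, -6.37, -6.38 and -7.23 against 2.31, 2.14, 2.45 and 2.30, at least 128-fold lower (adjusted p 4.74e-08), and kept an adjusted p of 0.047 with slide as a random block.

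Further male-biased genes fell by smaller steps. The fatty acid hydroxylases Cyp4a12a and Cyp4a12b fell by 6.68 and 6.63, the complement components C6 and C8a by 5.11 and 3.41, the elongase Elovl3 by 4.89, the complement regulator Susd4 by 4.53 and the steroid hydroxylase Cyp2d9 by 3.59. Cyp7b1, an oxysterol hydroxylase, read 3.03, 3.12, 3.25 and 3.56 in KO livers and 6.97, 6.45, 5.60 and 5.05 in WT livers (-2.78 ± 0.38, adjusted p 0.0018). WT livers 1 and 2 were the highest for this gene, but WT livers 3 and 4 also lay above all KO livers. Nudt7 fell by 2.65, the glutathione transferase Gstp1 by 2.31, Hsd17b2 by 0.97 and Ugt2b38 by 0.64. The major urinary proteins on the list did not pass, with Mup1 at 8.62, 8.83, 9.01 and 8.94 in KO and 8.92, 8.76, 8.87 and 9.27 in WT livers (-0.10 ± 0.15, adjusted p 0.63) and Mup20 at -0.09 ± 0.15. Of all 12 genes of that family tested 0 were higher and 2 lower, against 10.2% and 15.4% of all genes. The lower ones were Mup5 (-1.43 ± 0.28, adjusted p 0.0078) and Mup9 (-1.42 ± 0.24, adjusted p 0.0039). Signal may be shared among the closely related genes of this family. Serpina1e (0.12 ± 0.14) and Cyp2u1 (0.62 ± 0.42) did not pass either. With 1 liver left out 13 to 14 members were lower, and with slide as a random block 1 was.

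Both groups of livers expressed Y-linked transcripts. Ddx3y, Eif2s3y and Uty were well above background on 4 of 4 KO and 4 of 4 WT arrays, while Xist, the RNA of the inactive X chromosome, was above background on 0 of 4 in each. Ddx3y read 0.68, 0.85, 0.44 and 0.83 in KO and 0.77, 0.81, 0.72 and 0.53 in WT livers (-0.01 ± 0.14, adjusted p 0.98).

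**Figure D2:**
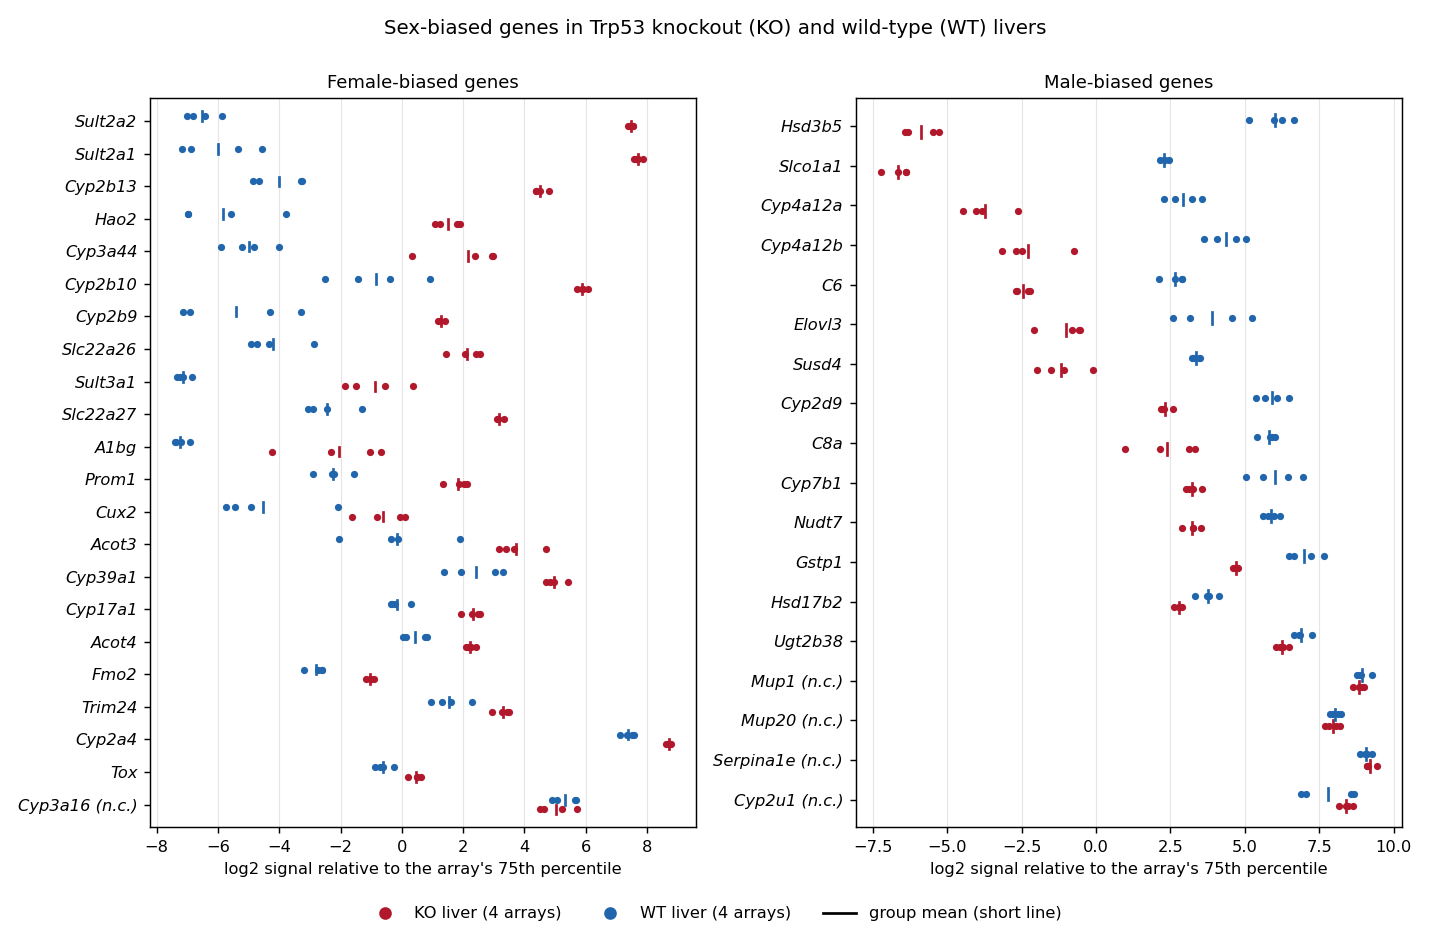
Log2 signal relative to the 75th percentile (horizontal axis) for the female-biased and male-biased genes given in the text, 1 point per liver array, KO and WT, with short lines at the group means and n.c. for genes that were not called. Sult2a2 lay between 7.37 and 7.53 in KO livers and between -7.01 and -5.87 in WT livers, and Hsd3b5 showed the opposite order.

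Genes of growth hormone signalling moved both ways. Of 16, 4 were higher and 5 lower (25% and 31.25%, against 10.2% and 15.4% of all genes). The receptor Ghr did not pass (0.10 ± 0.12, adjusted p 0.58), while the prolactin receptor Prlr rose by 1.49 ± 0.19 (adjusted p 0.0012), the kinase Jak2 by 0.44 ± 0.11 and Stat5b by 0.93 ± 0.25. The hormone's targets were lower in part. Igf1, the main growth factor made by liver under growth hormone, read 4.96, 4.99, 4.90 and 4.99 in KO livers and 6.31, 6.04, 5.38 and 5.48 in WT livers (-0.84 ± 0.21, adjusted p 0.021). KO livers were closely grouped below all WT livers. Igfals, which carries Igf1 in blood, fell by 0.61, Igfbp3 by 1.73 and the feedback inhibitor Socs2 by 1.07. Bcl6 read 1.76, 2.42, 3.16 and 2.03 in KO and 4.88, 4.93, 4.15 and 2.60 in WT livers (-1.80 ± 0.53, adjusted p 0.037), and the groups overlapped through WT liver 4.

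Igfbp1, a binding protein that rises with fasting and stress, read 7.21, 7.64, 4.78 and 7.85 in KO livers and 1.47, 3.06, 1.85 and 2.47 in WT livers (4.65 ± 0.67, adjusted p 0.0020). KO liver 3 was the low KO sample. Cish gave 0.97 ± 0.48 (adjusted p 0.17) and Igfbp2 0.84 ± 0.29 (adjusted p 0.065). The counts of this list rested on few livers. With 1 liver left out, 2 to 5 were higher and 2 to 5 lower, with 2 higher without KO liver 2, KO liver 4, WT liver 3 or WT livers 3 and 4. Without KO liver 1 or KO liver 2, 2 were lower, and without KO liver 3, KO liver 4, WT liver 2 or WT livers 3 and 4, 3 were.

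Targets of the glucocorticoid receptor were higher. Of 13 tested, 9 rose and 0 fell, against 10.2% higher among all genes, with a median change of 1.31. The estrogen sulfotransferase Sult1e1 read 2.25, 3.93, 3.79 and 4.00 in KO and -5.69, -5.48, -4.37 and -4.25 in WT livers (8.44 ± 0.47, adjusted p 2.5e-05). The metallothioneins, small metal-binding proteins, followed, with Mt1 at 5.95, 5.23, 6.67 and 5.42 in KO and 2.55, 3.31, 3.59 and 3.37 in WT livers (2.61 ± 0.34, adjusted p 0.0014) and Mt2 up by 2.97 ± 0.45. Both were higher in each KO liver than in any WT liver. The immunophilin Fkbp5 rose by 1.31 ± 0.19 (adjusted p 0.0022), the kinase Sgk1 by 1.63 ± 0.30, Ddit4 by 1.73 ± 0.45, the zinc finger gene Zbtb16 by 1.18 ± 0.31 and Tsc22d3, which encodes GILZ, by 1.09 ± 0.20. The phosphatase Dusp1 rose by 2.22 ± 0.63 with overlap. The receptor gene Nr3c1 (0.31), Tat (0.16), Per1 (0.57) and Lcn2 (0.55) did not pass. With 1 liver left out 6 to 10 members were higher, and 7 were without either pair of WT livers. In the fit of 4 groups 5 were higher, and with slide as a random block none was.

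The glucocorticoid response element, with the half-sites GNACA and TGTNC 3 bases apart, was searched on both strands of the same windows. It was found in 2 of 12 matched target genes (9.52% of 21 windows), against 0.387% of all 32851 promoters. Mt1 (GRCm38.p6, chr8:94178839-94179088, plus strand) and Sgk1 (chr10:21993640-21993889, plus strand) hold it and are shown with the element in capitals, as higher members with a match near the start. A match is a run of letters and not a measured binding site.
Mt1: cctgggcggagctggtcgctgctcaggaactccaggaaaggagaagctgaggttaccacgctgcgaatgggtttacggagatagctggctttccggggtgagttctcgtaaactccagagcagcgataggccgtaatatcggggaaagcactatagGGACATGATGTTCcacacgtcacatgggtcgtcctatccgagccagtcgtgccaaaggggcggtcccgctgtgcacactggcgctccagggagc
Sgk1: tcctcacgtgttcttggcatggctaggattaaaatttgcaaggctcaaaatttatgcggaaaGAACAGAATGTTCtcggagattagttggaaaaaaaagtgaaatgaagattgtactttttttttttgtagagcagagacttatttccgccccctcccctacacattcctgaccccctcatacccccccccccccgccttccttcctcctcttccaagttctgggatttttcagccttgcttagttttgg

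Immediate early and heat shock genes were higher in part, and these counts were unstable. Of 18 immediate early genes 6 rose (33.3%, against 10.2% of all genes). Among them were the transcription factors Jun (1.67 ± 0.51), Klf4 (1.23 ± 0.26) and Jund (0.53 ± 0.15) and the RNA-binding protein Zfp36 (1.79 ± 0.43). The groups did not overlap for 2 of the 18, against 31.6% of all genes. Jun read 2.54, 2.78, 0.36 and 2.72 in KO and 0.40, 0.63, 0.05 and 0.62 in WT livers, and Dusp1 2.41, 2.47, -0.37 and 1.996 against -1.19, -0.15, -1.09 and 0.04. KO liver 3 was at the level of the WT livers for both. Without KO liver 3, 10 members were higher. Without KO liver 2 only 1 was, and 2 were without KO liver 1, KO liver 4, WT liver 1, WT liver 3 or WT livers 3 and 4, and 3 without WT livers 1 and 2. Of 12 heat shock genes 6 rose (50%), from 0.39 (the chaperone Hspa8) to 0.75 (Hspa4l), with the mitochondrial chaperones Hspd1 at 0.64 ± 0.17 and Hspe1 at 0.50 ± 0.15. Without KO liver 1, 2 or 4, WT liver 3 or 4, or WT livers 3 and 4, 1 was higher, and without WT liver 2, 2 were.

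**Figure D3:**
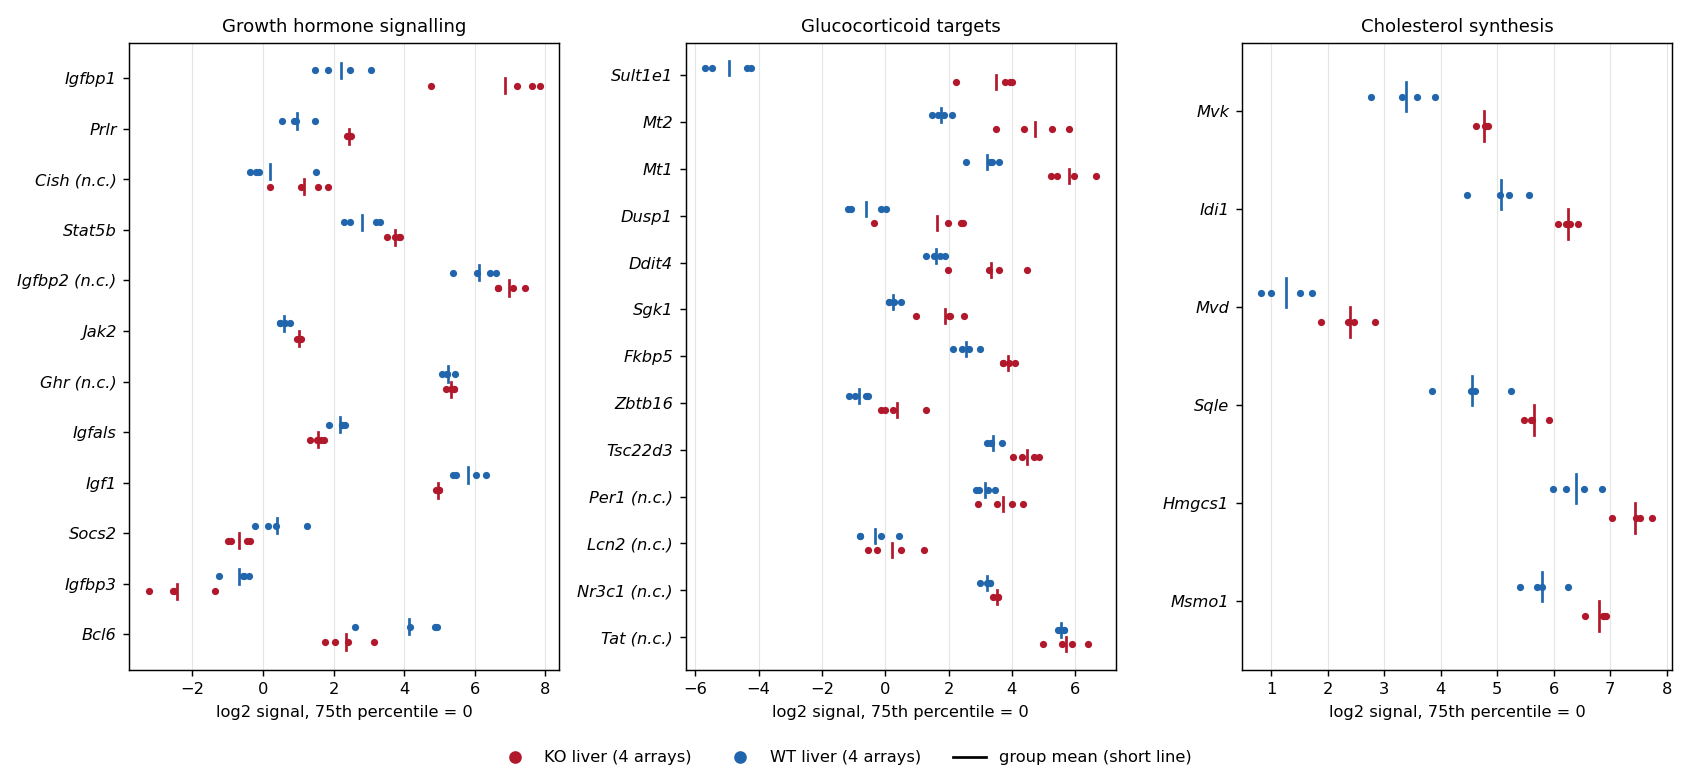
Log2 signal relative to the 75th percentile (horizontal axis) for genes of growth hormone signalling, glucocorticoid targets and cholesterol synthesis given in the text, 1 point per liver array, KO and WT, with short lines at the group means. The letters n.c. mark a gene that was not called. Igfbp1 lay between 4.78 and 7.85 in KO and between 1.47 and 3.06 in WT livers, with KO liver 3 lowest among the KO livers.

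Genes of cholesterol synthesis were higher. Of 20, 11 rose and 0 fell, against 10.2% higher among all genes, with a median change of 0.67. Mvk, mevalonate kinase, read 4.81, 4.84, 4.78 and 4.63 in KO and 3.59, 3.90, 3.31 and 2.77 in WT livers (1.37 ± 0.23, adjusted p 0.0037), without overlap. The isomerase gene Idi1 rose by 1.18 ± 0.22, Mvd by 1.12 ± 0.26, the squalene epoxidase Sqle by 1.09 ± 0.27, the synthase gene Hmgcs1 by 1.04 ± 0.22 and the sterol oxidase gene Msmo1 by 1.02 ± 0.19. With 1 liver left out 7 to 13 members were higher, and 7 were without KO liver 2 or without WT livers 3 and 4. In the fit of 4 groups 6 were higher, and with slide as a random block none was.

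Fat oxidation and synthesis differed in fewer genes. Of 27 genes of fatty acid oxidation and PPARα targets, 9 rose and 1 fell (33.3% and 3.70%, against 10.2% and 15.4% of all genes). Cyp4a14, a fatty acid hydroxylase, read 6.77, 6.56, 6.71 and 7.34 in KO and 4.63, 3.31, 2.77 and 5.37 in WT livers (2.83 ± 0.52, adjusted p 0.0062). The hormone Fgf21 rose by 1.80 ± 0.40, the fatty acid transporter Cd36 by 1.49 ± 0.24, Bdh1 of ketone body metabolism by 0.79 ± 0.11, and Ppara itself by 0.55 ± 0.16. Cidec, a protein of lipid droplets, fell by 3.48 (adjusted p 0.0030). Without WT livers 1 and 2, 3 of these genes were lower. Of 18 genes of fatty acid synthesis 2 were higher, among them Acss2 (1.12 ± 0.25), and 2 lower (11.1% each way). The lower ones were the desaturases Fads1 (-0.60 ± 0.16) and Fads2 (-0.57 ± 0.13), with another probe of Fads2 opposite. Without WT livers 3 and 4 none was higher, and without KO liver 2 or KO liver 4 none was lower.

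Among 16 genes of gluconeogenesis and fasting, 5 rose and 2 fell (31.25% and 12.5%, against 10.2% and 15.4% of all genes). The coactivator Ppargc1a read 0.28, 0.39, 0.38 and 0.69 in KO livers and -0.61, -0.15, -1.19 and -1.11 in WT livers (1.20 ± 0.24, adjusted p 0.0079). Irs2 (1.12 ± 0.35), Lpin1 (0.86 ± 0.23) and Gadd45b (2.04 ± 0.60) also rose. Asns, asparagine synthetase, was far lower, with -4.27, -4.47, -3.78 and -3.64 in KO and 1.44, 2.04, 1.05 and -0.03 in WT livers (-5.16 ± 0.41, adjusted p 0.00015). Obp2a, a lipocalin not above background on any KO array, was at least 2.27-fold lower. The number of higher members fell to 2 without KO liver 1, KO liver 4 or WT liver 1, and to 3 without KO liver 2, WT liver 2, 3 or 4, or WT livers 1 and 2.

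Genes best known from fat cells were lower while the defining fat cell hormones were undetected. Cfd, complement factor D or adipsin, read -4.12, -4.28, -5.61 and -4.50 in KO and 0.69, -0.35, 1.07 and 2.70 in WT livers (-5.66 ± 0.61, adjusted p 0.00054), and the lipid droplet protein Cidea -3.35, -4.31, -2.10 and -2.47 against 3.96, 0.98, -0.19 and 3.31 (-5.07 ± 0.91, adjusted p 0.0055). The groups did not overlap for either gene. Plin4 fell by 1.77. In all, 3 of 6 tested genes of the list were lower (50%, against 15.4% of all genes), Fabp4 (0.19 ± 0.18) was not, and Adipoq and Lep were above background on 0 of the 8 liver arrays.

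Among genes of iron handling Hamp2, a hepcidin gene, moved furthest. It read 7.08, 7.80, 7.68 and 6.79 in KO and -0.34, 0.09, 1.06 and 0.75 in WT livers (6.95 ± 0.35, adjusted p 1.43e-05), and kept an adjusted p of 0.019 with slide as a random block. Every liver was above background for it, so the size was measured on both sides. Of the other genes among 15 of iron handling only Hjv, hemojuvelin, was called (-0.85 ± 0.15), though 3 genes were higher without WT livers 1 and 2. Of 18 bile acid genes 4 were higher (22.2%, against 10.2% of all genes), the export pump Abcc4 (1.69 ± 0.21), the rate-limiting enzyme Cyp7a1 (1.25 ± 0.39), the transporter Slco1a4 (1.18 ± 0.21) and Slc27a5 (0.46 ± 0.12, with another probe at 0.0097), and Cyp27a1 was lower (-0.89 ± 0.16). Leaving out KO liver 2, KO liver 3 or WT liver 3 left 2 higher, and leaving out WT liver 1, or WT livers 1 and 2, gave 3 lower.

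Hepatocytes around the central vein depend on Wnt signals, and 6 of 14 genes of this zone rose, against 10.2% of all genes. The count was 6 whichever liver was left out, 1 in the fit of 4 groups and 0 with slide as a random block. The Wnt targets Nkd1 (1.41 ± 0.15, adjusted p 0.00048), Lgr5 (1.58 ± 0.21) and Axin2 (1.15 ± 0.25) were among them. The ammonium transporter Rhbg rose by 1.80 ± 0.34 and the glutamine synthetase gene Glul, at 5.22, 5.25, 5.12 and 5.46 in KO and 4.53, 4.42, 4.22 and 4.78 in WT livers, by 0.77 ± 0.15 (adjusted p 0.0073). Cyp1a2, also of this zone, fell by 0.60, and 3 members were lower without WT livers 1 and 2. Of 12 periportal genes 1 was higher (8.33%), Aldh1b1 (0.54 ± 0.17), and 2 were lower without WT livers 3 and 4. Among 18 P450 genes of foreign compound metabolism 22.2% were higher and 16.7% lower, against 10.2% and 15.4% of all genes. The reductase Por (1.15 ± 0.27), Cyp1a1 (1.14 ± 0.34), the receptor Ahr (0.70 ± 0.13) and Cyp2c29 (0.40 ± 0.12) rose, while Cyp2f2, Cyp2d22 and Cyp1a2 fell by 0.75, 0.73 and 0.60. Between 2 and 4 of these were higher with 1 liver left out (2 without KO liver 1, 2 or 4 or WT liver 2 or 3) and 1 to 3 lower (1 without KO liver 1, 2 or 3). Of 17 NRF2 targets Nqo1 (1.12 ± 0.14, adjusted p 0.0012), Gstm2 and G6pdx rose (17.6%). That count was 6 without WT liver 1, 7 without WT livers 1 and 2, and 1 without KO liver 2, KO liver 3, WT liver 3, WT liver 4 or WT livers 3 and 4.

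The lists of secreted and stress-related proteins were set against all genes, of which 10.2% were higher and 15.4% lower. Acute phase genes were called at 9.09% and clock genes at 5.56% each way. Of the unfolded protein response 16.7% were lower, of MHC genes 8.33% were lower and of interferon response genes 18.5% were higher. Of 22 acute phase genes Itih4 (0.72 ± 0.10, with another probe at 0.044) and haptoglobin, Hp (0.43 ± 0.11), were higher, and Serpina3m (-1.40 ± 0.14, adjusted p 0.00040) and ceruloplasmin, Cp (-0.47 ± 0.13), lower. Another probe of Cp moved the opposite way. Without WT liver 2, 4 were lower, and without WT livers 1 and 2, 6 were. Of 18 genes of the unfolded protein response, 3 were lower, Sdf2l1 (-1.78 ± 0.20, adjusted p 0.00062), calreticulin or Calr (-1.14 ± 0.17) and Hyou1 (-1.35 ± 0.38), and 3 were higher without WT livers 1 and 2. Of 27 interferon response genes 5 were higher, led by the GTPase Gbp3 (1.89 ± 0.24, adjusted p 0.0012), 3 without KO liver 1, and 2 were lower without WT livers 1 and 2. Of 12 MHC genes and transporters 1 was lower, Tap1 (-1.03 ± 0.26). Among 18 clock genes Hlf rose (0.47 ± 0.13) and Bhlhe41 was lower (adjusted p 8.99e-05), above background on no KO array, and 4 were higher without KO liver 3 or without WT livers 1 and 2.

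The tissue carried the markers of liver. The summed level of 8 hepatocyte markers was 11.3 to 11.5 in KO and 10.9 to 11.3 in WT livers, and albumin, Alb, read 9.97, 9.88, 10.17 and 9.81 in KO and 9.76, 9.68, 9.29 and 9.58 in WT livers (0.38 ± 0.14, adjusted p 0.083). Of 30 mature hepatocyte genes 3 were higher (10%, against 10.2% of all genes), Ttr, Hpd and Cyp2c29, and the transcription factor Cebpa was lower (-0.75 ± 0.13). Of these higher genes 1 remained in number without any 1 KO liver, WT liver 3 or WT liver 4, while 7 were higher and 3 lower without WT livers 1 and 2. Of 16 biliary genes Prom1 and Krt23 were higher (12.5%) and 3 lower (18.75%, against 15.4% of all genes), among them Sox9 (-1.40 ± 0.34) and Slc4a2 (-0.96 ± 0.23). Krt19 gave 0.33 ± 0.22 (adjusted p 0.30). The summed level of bile duct markers was 0.70 to 1.47 in KO and 0.66 to 1.60 in WT livers. Without WT liver 2, 4 biliary genes were higher. The number lower was 1 without KO liver 1, KO liver 2 or WT liver 3, and 5 without WT livers 1 and 2. Among 12 oncofetal genes (16.7% higher and 8.33% lower) Igf2 was lower, not above background on any KO array (at least 1.46-fold), Dlk1 (0.69 ± 0.19) and Abcc4 were higher, and Afp did not pass (-0.17 ± 0.70), with WT liver 3 high at 0.61.

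Of 14 genes of Kupffer cells, the resident macrophages of liver, 5 were higher (35.7%, against 10.2% of all genes). Adgre1, the F4/80 antigen, read 1.35, 1.23, 1.49 and 1.29 in KO and 0.26, 0.34, -0.63 and -0.17 in WT livers (1.38 ± 0.21, adjusted p 0.0029, with another probe at 0.37). Timd4, a receptor for dying cells, rose by 0.81 ± 0.19 and the complement gene C1qa by 0.72 ± 0.15. The summed level of 5 Kupffer cell markers was 5.54 to 5.92 in KO and 4.70 to 5.43 in WT livers. Without KO liver 1, 2 or 4, 3 were higher. Of 14 endothelial genes Oit3 (0.80 ± 0.16), Egfl7 (0.73 ± 0.16) and Vwf (0.85 ± 0.20) were higher (21.4%), and 8 were without KO liver 3. Of 19 stellate cell and matrix genes Rgs5 was higher and Hhip lower (5.26% each way, against 10.2% and 15.4% of all genes), and 4 were higher without WT livers 1 and 2. Of 2 tested muscle genes Cnn1 was higher (1.57 ± 0.45).

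Few lymphocyte genes were called. Of 11 T and NK cell genes 2 were lower (18.2%, near the 15.4% of all genes), Cd3e (-0.72 ± 0.20) and Prf1 (-0.95 ± 0.27). In this list 4 were lower without WT livers 1 and 2, and none was without any 1 KO liver, WT liver 3, WT liver 4 or WT livers 3 and 4. None of 7 tested B and plasma cell genes passed in limma (2 were lower at an unadjusted p below 0.05), with a median change of -1.35. The summed level of 4 of their markers was -0.51 to -0.11 in KO and 0.31 to 4.53 in WT livers, and WT liver 4 was the highest, with the immunoglobulin joining chain Jchain at 4.30 against -0.69, -0.18 and -0.05 in the other WT livers. Without WT liver 4, 3 B cell genes were lower, without WT livers 3 and 4, 4 were, and without WT livers 1 and 2, 2 were. Of 8 neutrophil genes none passed in limma, with 1 higher at an unadjusted p below 0.05. Of 5 erythroid genes the globin Hbb-bt was higher (2.43 ± 0.66) and the heme synthesis gene Alas2 lower (-1.93 ± 0.40). This is 20% each way, against 10.2% and 15.4% of all genes. The markers of pancreatic acinar cells, 8 genes tested, were lower for Ctrl, Ctrb1 and Cel (37.5%), which fell by 1.79, 1.08 and 0.75, and 5 were lower without WT liver 4 or without WT livers 3 and 4. The part of these cell types in the other results was not tested.

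The lists of oxidative phosphorylation (25 genes tested) and ribosomal proteins (26), which hold part of each group, had no call in limma's test with all 8 livers, where 5 and 1 of them were higher at an unadjusted p below 0.05. Over all subunit genes found by symbol, 5 of 81 of oxidative phosphorylation were higher and 2 lower, among them Atp5g1 (0.69 ± 0.17, adjusted p 0.022). Of 79 ribosomal protein genes 1 was higher and 3 lower, among them Rpl12 (-0.48 ± 0.12, adjusted p 0.020). Among all genes 10.2% were higher and 15.4% lower. The counts of the lists rested on WT livers 1 and 2. Without WT liver 1, 12 genes of oxidative phosphorylation were higher, and without WT livers 1 and 2, 19 of these and 13 ribosomal protein genes were. Their median changes with all livers were 0.26 and 0.12. Nnt, which is partly deleted in the C57BL/6J substrain, was above background on all arrays (0.38 ± 0.34, adjusted p 0.43). H2-Ea, which C57BL/6 mice do not express, was above background on none.

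**Figure D4:**
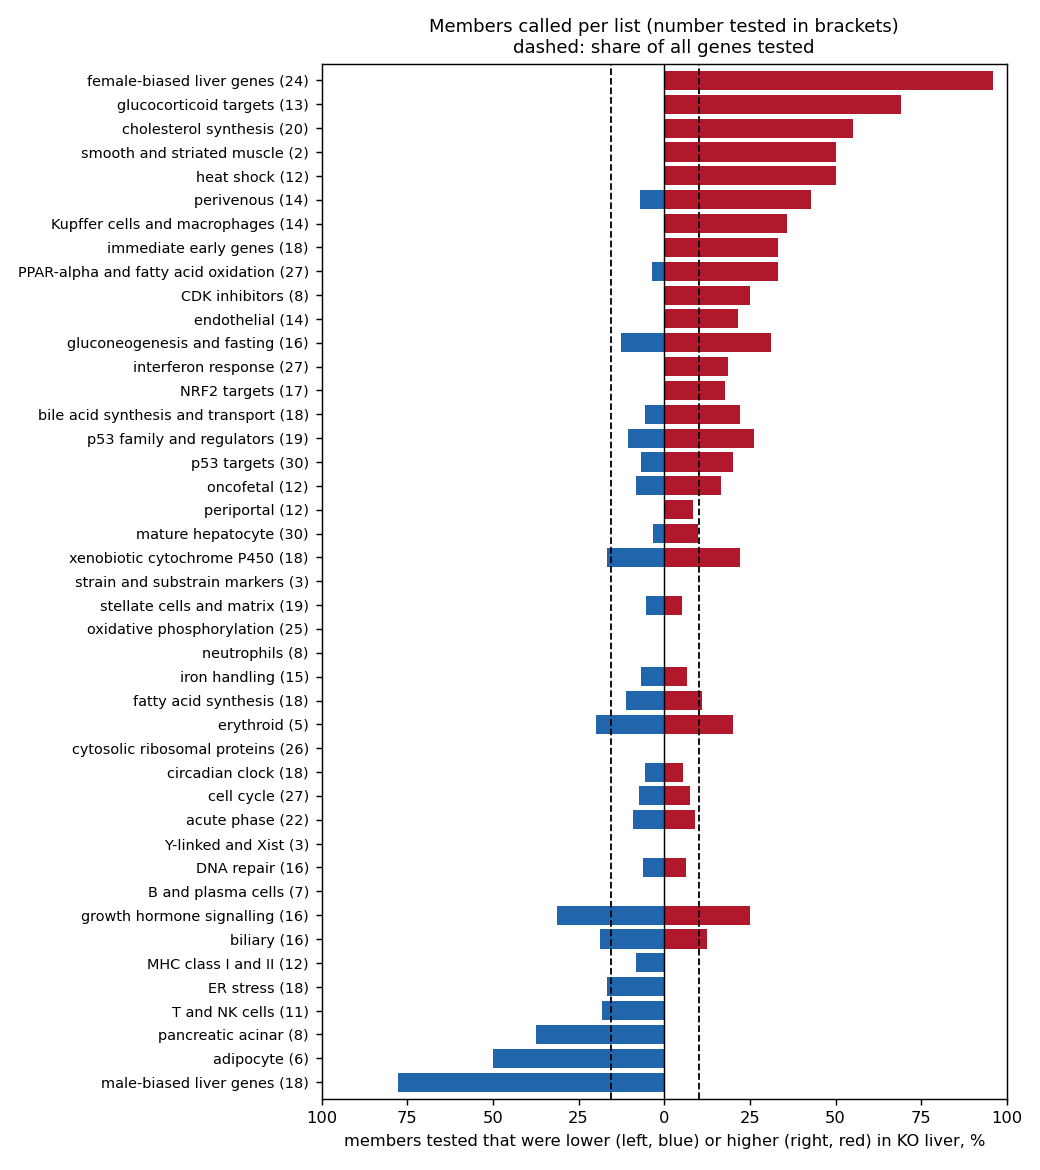
Share of the tested genes of each list that were called higher or lower in KO livers (horizontal axis, percent, higher to the right and lower to the left), with the share of all 17768 genes (10.2% higher, 15.4% lower) as dashed lines. The female-biased list had 23 of 24 genes higher and the male-biased list 14 of 18 lower.

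Other genes were among those that moved furthest without belonging to a list. The pseudogene Serpina4-ps1 read 4.26, 3.45, 4.53 and 4.60 in WT livers and was not above background in KO livers (adjusted p 1.39e-06), and the lectin-like receptor gene Clec2h was at least 32.2-fold lower. Cib3, a calcium-binding protein, fell by 6.11 (adjusted p 0.00060). Prok1, a prokineticin, was at least 11.6-fold and Meig1, known from meiosis, at least 8.95-fold lower. The uncharacterised transcript 2610507I01Rik (chr11:59011304-59011363), on the chromosome of Trp53, read -0.24, -0.04, -0.26 and -0.23 in WT livers and was not above background in KO livers, at least 22.8-fold lower, with an adjusted p of 0.00011 with slide as a random block. Egfr, the epidermal growth factor receptor gene, was singled out after its values were seen, as a gene outside the lists that passed with that block. Its mean was 2.08 in KO and 5.22 in WT livers (-3.14 ± 0.26, adjusted p 0.00019, and 0.010 with the block).

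A contrast of KO against intact Trp53 can also be made between tumours, KO against DEN tumours. These also differ in carcinogen exposure, in the tumour type on the labels and in slide. KO tumours 4, 5 and 6 had a slide of their own. Its 75th percentiles of intensity were 2045 to 4258, against 512 to 1357 on the other tumour arrays. Genotype cannot be told apart from these differences. There 3485 genes (19.6%) were higher and 6949 (39.1%) lower, in a limma fit of 4 group means over 18 mice. Of the 1812 genes higher in KO livers, 423 (23.3%) were higher and 580 (32.0%) lower in KO tumours. These 423 are 12.1% of the genes higher in KO tumours. Of the 2744 genes lower in KO livers, 1688 (61.5%) were also lower in KO tumours, where 39.1% of all genes were lower, and these are 24.3% of the genes lower in KO tumours. The liver and tumour differences themselves differed for 6402 genes (36% of those tested, adjusted p below 0.05).

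The female-biased genes were ordered otherwise in tumours, and no male-biased gene was called higher in livers or in tumours. Of the 24 female-biased genes 1 was higher and 14 were lower in KO than in DEN tumours, and the difference between the contrasts was called for 22. Of all genes 19.6% were higher and 39.1% lower in KO tumours, and the difference was called for 36%. Cyp2b13 lay between -7.00 and -3.08 in the KO tumour mice and between -3.45 and 2.505 in the DEN tumour mice, with a lower mean in KO tumours, opposite to the livers. Its liver change exceeded its tumour change by 12.99 ± 1.27 (limma adjusted p 9.73e-06). Of the 18 male-biased genes 0 were higher and 11 lower in KO tumours, and the difference was called for 11. Hsd3b5 was lower by less in tumours, with a difference of -8.78 ± 1.90 (limma adjusted p 0.0023). The tumour values come with a difference in Y-linked transcripts, since 2 of the 5 KO tumour mice and 0 of the 5 DEN tumour mice had none above background. Xist was above background on 2 of 6 KO tumour arrays and on 4 of 7 DEN tumour arrays. Without the 2 KO tumour mice that had no Y-linked transcript the difference was called for 5902 genes. The counts of the sex-biased lists without these mice are not given.

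Other groups also differed between liver and tumour. Of 20 cholesterol synthesis genes, 19 were lower in KO than in DEN tumours, and the difference from the livers was called for 19 (against 39.1% and 36% of all genes). Of 30 mature hepatocyte genes 28 were lower in KO tumours and the difference was called for 26, with Alb at a difference of 2.68 ± 0.61. Igfbp1 lay between 2.51 and 6.14 in KO and between 8.03 and 8.85 in DEN tumour mice, the opposite of the livers. For the p53 targets, 7 of 30 were higher and 8 lower in KO tumours, against 19.6% higher and 39.1% lower among all genes. Trp53 itself differed by -2.06 between the tumours and by -2.002 between the livers. The liver size is not a measured one, since the probe was above background on 1 of 4 KO livers.

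**Figure D5:**
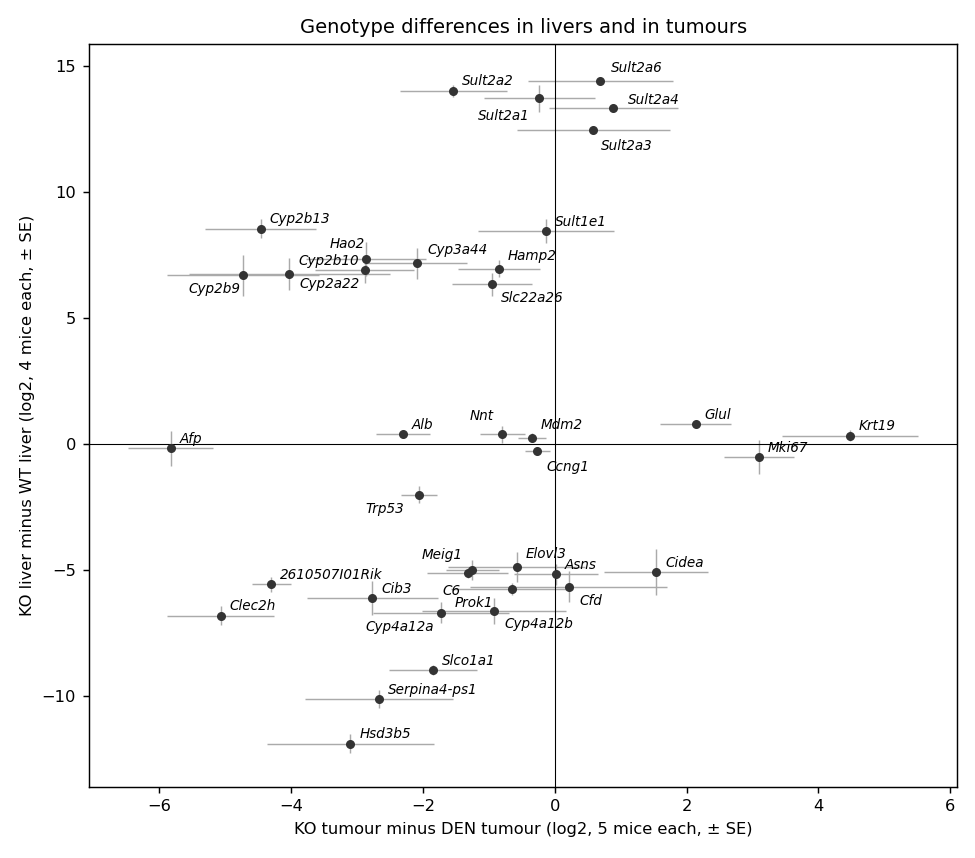
Genotype difference in tumours (horizontal axis, log2 KO minus DEN tumour, 5 mice each) against that in livers (vertical axis, log2 KO minus WT liver, 4 mice each) for genes among those that moved furthest in the livers and the always-named genes, with bars of ± 1 SE. Cyp2b13 and Cyp2b9 lie above 0 on the liver axis and below 0 on the tumour axis, and Trp53 lies below 0 on both.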

How the data were processed

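RNA of 21 mouse liver and tumour samples was read as Cy3 signal on one-colour arrays of 44397 spots. The authors' scans were quantified by Agilent Feature Extraction (version 10.7.3.1), per the file headers. The deposited files hold a background-corrected processed intensity for each spot. The authors also deposited log2 values of the whole series, and each of these columns correlated with its own array at 0.9999 or more after scaling and centring of probes.

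Outlier spots were left out, spots of a probe averaged as log2 intensity, and the 75th percentile of 39429 non-control probes subtracted on each array. A probe had to be well above background in 4 or more of the 8 livers, and the brightest probe stood for a gene (17768 genes, 14434 with a symbol from RefSeq genes of build GRCm38.p6, used for names and promoters). Probe coordinates are mm9, from the array files. The 8 livers were fitted in limma 3.58.1 (R 4.3.3, data.table version 1.17.8) and tested two-sided with moderated variances (2.66 prior degrees of freedom). A fit of 4 group means over 18 mice, tumours of 1 mouse averaged, gave the tumour contrast and the difference. The fit with slide as a random block took all 21 arrays in 4 groups, tumours included. Figures were drawn with matplotlib 3.10.9 and values handled with pandas 2.3.3 and numpy 2.4.6 under Python 3.11.15.

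On simulated data for the 8 livers with 17732 genes, 67, 67 and 66 genes were changed by 0.5, 1 and 2 log2 units. Of these 4.48%, 50.7% and 80.3% were recovered, with 6 false calls. The simulation held no slide shift and far fewer changed genes than were called in the livers. It therefore gives no error rate for the calls in the livers. The groups, the 43 gene lists (755 of 768 members on the array) and the tests were chosen with earlier results of these data known. Named genes (146) were the 15 highest and 15 lowest called changes without overlap and above background on all 4 arrays of the higher group, up to 3 called members per list and direction with the smallest adjusted p, and 12 genes always named. Other list members are given to describe their list. Other probes above background existed for 26 named genes, and in 4 another probe had a change of the opposite sign. Alternatives changed the background correction, scaling, filter, choice of probe, variance model, samples and block. The p-values measure the spread between these arrays. Some named genes are not reported here, though they stay in the fits and in the counts of each list; the number of sets of livers examined for a stray value leaves them out. Counts over whole gene families, taken by symbol, were added after seeing the data.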

Additional observations from a re-analysis of the deposited data

Results flagged for a closer look

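Among the named genes, 20 of 276 sets of 4 livers had 1 liver far from the other 3, its gap to the nearest exceeding Dixon's critical share of the whole range, where chance gives about 1 in 20. Values are log2 signals. KO liver 1 stood apart for Sult1e1 at 2.25 (others 3.79 to 4.00), Slco1a4 at 1.94 (others 2.04 to 2.06) and C1qa at 1.90 (others 1.64 to 1.65). KO liver 3 stood apart for Hlf at 0.0090 (others 0.25 to 0.27), Fads1 at 2.79 (others 2.52 to 2.55), Cp at 5.06 (others 5.27 to 5.31), Hjv at 0.64 (others 0.11 to 0.19), Dusp1 at -0.37 (others 1.996 to 2.47) and Hbb-bt at 3.95 (others 6.59 to 6.74). KO liver 4 stood apart for Cyp2f2 at 7.18 (others 6.61 to 6.62), Msmo1 at 6.56 (others 6.87 to 6.92) and Hpd at 6.63 (others 6.41 to 6.45). WT liver 1 stood apart for Obp2a at -0.77 (others -4.75 to -4.08), Cyp2c29 at 5.98 (others 5.64 to 5.69) and Alas2 at 4.27 (others 3.53 to 3.64). WT liver 2 stood apart for 2610507I01Rik at -0.037 (others -0.26 to -0.23) and Acss2 at 5.99 (others 5.06 to 5.19). WT liver 3 stood apart for Abcc4 at -2.47 (others -1.87 to -1.80). WT liver 4 stood apart for Bdh1 at 5.38 (others 5.50 to 5.52) and Cyp27a1 at 2.35 (others 2.80 to 2.85). KO liver 3 accounted for 6 of these.

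The knockout against intact difference in livers was set against that in tumours for 39 genes, and 31 passed the test of the difference itself (limma, adjusted p below 0.05 over all genes, values as log2 liver minus tumour difference). The signs given here are those of the measured values, whether or not each contrast was called on its own. For genes with a positive liver value and a negative tumour value the difference was 15.54 for Sult2a2, 13.93 for Sult2a1, 12.99 for Cyp2b13, 11.41 for Cyp2b9, 10.77 for Cyp2b10, 10.20 for Hao2, 9.78 for Cyp2a22, 9.25 for Cyp3a44, 8.57 for Sult1e1, 7.80 for Hamp2, 7.29 for Slc22a26 and 2.68 for Alb. Positive in both, and larger in livers, were Sult2a6 (difference 13.68), Sult2a4 (12.44) and Sult2a3 (11.87). Afp (5.66) was negative in both, and more so in tumours. Negative in both, and more so in livers, were Hsd3b5 (-8.78), Serpina4-ps1 (-7.44), Slco1a1 (-7.10), Cyp4a12b (-5.70), Prok1 (-5.09), Cyp4a12a (-4.96), Elovl3 (-4.31), C6 (-3.79), Meig1 (-3.74) and 2610507I01Rik (-1.26). A negative liver value stood beside a positive tumour value for Cidea (-6.61), Cfd (-5.87), Asns (-5.18) and Mki67 (-3.62), and Krt19 (-4.15) was positive in both and larger in tumours. The contrasts share no sample, but no slide held more than 1 group, and several of these genes were not above background in one of the groups, so the sizes are not all measured ones.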

How the results depend on the processing

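No paired analysis was possible because KO and WT livers carry no shared replicate numbers. The counts of higher and lower genes (1812 and 2744) became 42 and 71 with normexp on all spots, 11 and 13 with slide as a random block, and 514 and 1404 in the fit of 4 groups over 18 mice. Without the filter 1118 were higher, and with probes above background on all 8 livers 1580 were lower. Leaving out 1 liver gave 875 to 2433 higher and 1824 to 3080 lower. After seeing the data, both pairs of WT livers were also left out. Without WT livers 1 and 2 the counts were 4311 and 4191, and without WT livers 3 and 4 1185 were higher. The collapse with normexp followed WT liver 4, where the lowest net spot signal was -290135 and the 1st percentile after normexp was 3087, against 54.6 to 56.4 on the other livers. With 43 such spots of that array left out, a step added after seeing the data, 1803 genes were higher and 1769 lower. The share of calls that were lower was 60.2%, and 49.5% with this step, 55.1% with quantile scaling, 47.7% with probes above background on all 8 livers and 49.3% without WT livers 1 and 2. The change of Trp53 was -1.08 (limma adjusted p 0.47) with normexp on all spots, and its p was 0.29 with the slide block, at -2.002. The difference between liver and tumour contrasts (6402 genes) was called for 2424 genes with normexp on all spots, 7076 with normexp without such spots and 939 with the slide block. Of 136 called named genes, 136 passed with the authors' values, 116 with the reduced normexp, 71 in the fit of 4 groups and 9 with the slide block. With normexp on all spots the sign turned for Rrm2b (-0.21), Igfals (0.0034), Cyp1a1 (-0.34), Cyp1a2 (0.16), Fads2 (0.12), Cp (0.32), Klf4 (-0.012) and Dlk1 (-0.36), and with the mean of all probes for Cp (0.072). In the reduced normexp the sign turned for 0 of the 136. Probes not above background in 1 group limit the size of many changes, which are then bounds.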
